A study of Mus musculus with 2 samples.

Results

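The cytosolic ribosomal protein genes are described here across cell classes of the dentate gyrus of mice at postnatal day 5. Members were all genes whose symbol begins with Rpl or Rps and continues with a number and at most a short suffix, together with Rpsa, Rplp0, Rplp1 and Rplp2. Pseudogene symbols ending in -ps and the Rps6k kinases were excluded. The rule found 83 of the 32285 genes in the files, 51 with large-subunit symbols and 32 with small-subunit symbols. It used names only and no measured value. Of the 83 members, 81 reached 30 UMIs (unique molecular identifiers, 1 for each captured mRNA molecule) in the kept cells of both libraries together. The exceptions were Rpl3l, with 3 UMIs in control and 4 in Setdb1_cKO, and Rpl10l, with 0 in both. A count of 0 UMIs does not exclude up to 3. Rpl39l, with 43 and 65 UMIs, passed over all cells and in microglia, which left 80 members in most of the cell classes.

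Ribosomal proteins clothe the ribosomal RNA of both subunits, and each ribosome carries nearly all of them in a single copy. Their mRNAs are among the most abundant of a cell, and most begin with a pyrimidine run, the terminal oligopyrimidine tract (5′ TOP), through which mTOR signalling and Larp1 control their translation and stability. Growing cells such as neural progenitors spend more of their mRNA on these genes than mature neurons do.

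Single cells of dissected dentate gyri were profiled with 10x Genomics 3′ chemistry in 2 groups at postnatal day 5, a control group labelled wild type and a Setdb1_cKO group, in which the gene for the histone methyltransferase SETDB1 was conditionally deleted. The title places the study in the question of how SETDB1 bears on the state and fate of dentate gyrus cells. Each group had 1 library, so no p-value could be computed, every ratio compares these libraries, and intervals cover counting error only. The sources used here do not give the Cre driver, the deleted exons, the number and sex of the animals, or whether control animals carried a Cre. Genotype, animal and library preparation cannot be told apart.

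The 5′ ends of 8 members are shown because these genes were at the ends of the comparison between the libraries that follows. Each line gives 45 bases before and 15 bases from the annotated transcript start on the gene's strand (RefSeq, GRCm38.p6). Capitals mark a run of at least 5 bases of C or T that begins with C within 5 bases of the start.
Rps27 (chr3:90213634-90213693, minus strand): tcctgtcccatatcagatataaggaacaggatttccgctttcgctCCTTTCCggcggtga
Rpl38 (chr11:114668535-114668594, plus strand): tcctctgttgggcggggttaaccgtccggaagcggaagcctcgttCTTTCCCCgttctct
Rpl39 (chrX:37085208-37085267, minus strand): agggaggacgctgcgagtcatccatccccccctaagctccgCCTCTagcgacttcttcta
Rps28 (chr17:33824548-33824607, minus strand): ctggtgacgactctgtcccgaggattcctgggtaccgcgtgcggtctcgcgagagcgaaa
Rps18 (chr17:33955651-33955710, minus strand): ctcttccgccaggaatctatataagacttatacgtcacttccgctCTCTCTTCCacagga
Rpl13a (chr7:45128731-45128790, minus strand): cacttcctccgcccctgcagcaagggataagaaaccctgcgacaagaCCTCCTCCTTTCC
Rpl4 (chr9:64173342-64173401, plus strand): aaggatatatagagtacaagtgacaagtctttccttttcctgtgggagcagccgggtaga
Rpsa (chr9:120127721-120127780, plus strand): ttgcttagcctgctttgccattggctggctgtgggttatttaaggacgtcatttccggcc

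Tracts as defined above stood at the start of members that were higher in Setdb1_cKO (Rps27, Rpl38, Rpl39, Rps18). Rpl13a, which was among the lowest, also had a tract. No run met this definition in the windows shown for Rps28, Rpl4 and Rpsa. The Rpl4 window does hold a run of C and T, which began too far before the annotated start to be counted. RefSeq windows of 300 bases (250 before and 50 after the start) were found for 63 of the 83 members, 75 windows in all. The tract was in 31 of the 75 windows (41.3%) and in 18.3% of the 32776 windows of other genes. CCGGAAG, the core recognised by ETS factors such as GABPA, was on either strand of 36.0% of member windows and 8.80% of the others. ATGGCGG, the core of YY1 sites, was in 18.7% and 4.02%, and CACGTG, the E-box of Myc and Usf factors, in 10.7% and 7.14%. Of the members with a coding length of up to 330 nt, the tract was found in 6 of 12 with a window, and of longer members in 23 of 51. A match describes letters near an annotated start and is no evidence of a bound factor.

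The libraries held 14397 control and 12060 Setdb1_cKO barcodes, and 10815 and 9385 cells were kept, with medians of 5932 and 6976 UMIs. The libraries shared 68 barcodes, 39 of them among kept cells. Cells were sorted into classes by marker genes that held no member: 8718 control cells (80.6%) and 7149 Setdb1_cKO cells (76.2%) entered a class, and 975 and 926 of these scored less than 1.3 times above their next class. Of 19 marker classes, 17 had at least 15 cells in both libraries and 12 at least 50. Xist, the RNA of the inactive X, was at 0.220 UMIs per 1000000 UMIs (CPM) in control and 1234 CPM in Setdb1_cKO, so sex cannot be told apart from genotype either. Ribosomal protein genes have many processed pseudogenes, and the sources used here do not say how reads that match a gene and its copies were counted, so each member's count may hold some reads of copies.

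Over all kept cells Setdb1 itself had 42.7 CPM in control against 20.5 CPM in Setdb1_cKO, a ratio (Setdb1_cKO over control) of 0.479 (95% interval 0.450 to 0.509). It was lower in radial glia (0.320), astrocytes (0.328), intermediate progenitors (0.449), neuroblasts (0.553), granule neurons (0.291), pyramidal or mossy neurons (0.330) and Cajal-Retzius cells (0.362). In oligodendrocyte progenitors (1.14), border macrophages, endothelial cells (1.3) and fibroblasts (1.07) it was not lower, with intervals that included 1. In microglia the ratio was 0.725 with an interval of 0.471 to 1.11. Reads from a 3′ library that lie outside the deleted exons do not test the deletion.

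In both libraries, microglia spent the largest share of UMIs on ribosomal protein genes, and ependymal cells and astrocytes the smallest. In the control library the members held 21.1% of the UMIs of microglia, 19.1% of border macrophages, 18.8% of fibroblasts and 18.4% of endothelial cells. Among cells of the dentate lineage, intermediate progenitors had 17.3%, neuroblasts 15.2%, radial glia 12.7%, granule neurons 11.1% and astrocytes 9.68%. Neurons outside the granule lineage were low, at 9.80% in pyramidal or mossy neurons (the glutamatergic neurons of the neighbouring hippocampal fields and the hilus), 10.7% in GABAergic neurons and 12.8% in Cajal-Retzius cells. The highest class share was 2.39 times the lowest in control and 2.49 times in Setdb1_cKO. Along the neurogenic lineage the share rose from radial glia to intermediate progenitors and fell through neuroblasts to granule neurons in both libraries. By summed UMIs the order of these classes was not the same. Granule neurons, with 31 cells in control, were below radial glia there (11.1% against 12.7%) and above them in Setdb1_cKO (15.6% against 13%). By the median cell granule neurons were above radial glia in both libraries. These medians were 13% against 11.8% in control and 15.9% against 12.2% in Setdb1_cKO. In control, the middle 50% of cells ran from 9.37% to 14.9% in radial glia, from 15.5% to 19.6% in intermediate progenitors and from 13.6% to 16.9% in neuroblasts. The spans of radial glia and intermediate progenitors did not overlap, in control or in Setdb1_cKO (up to 15.1% and from 16.2%), while those of intermediate progenitors and neuroblasts did.

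**Figure D1:**
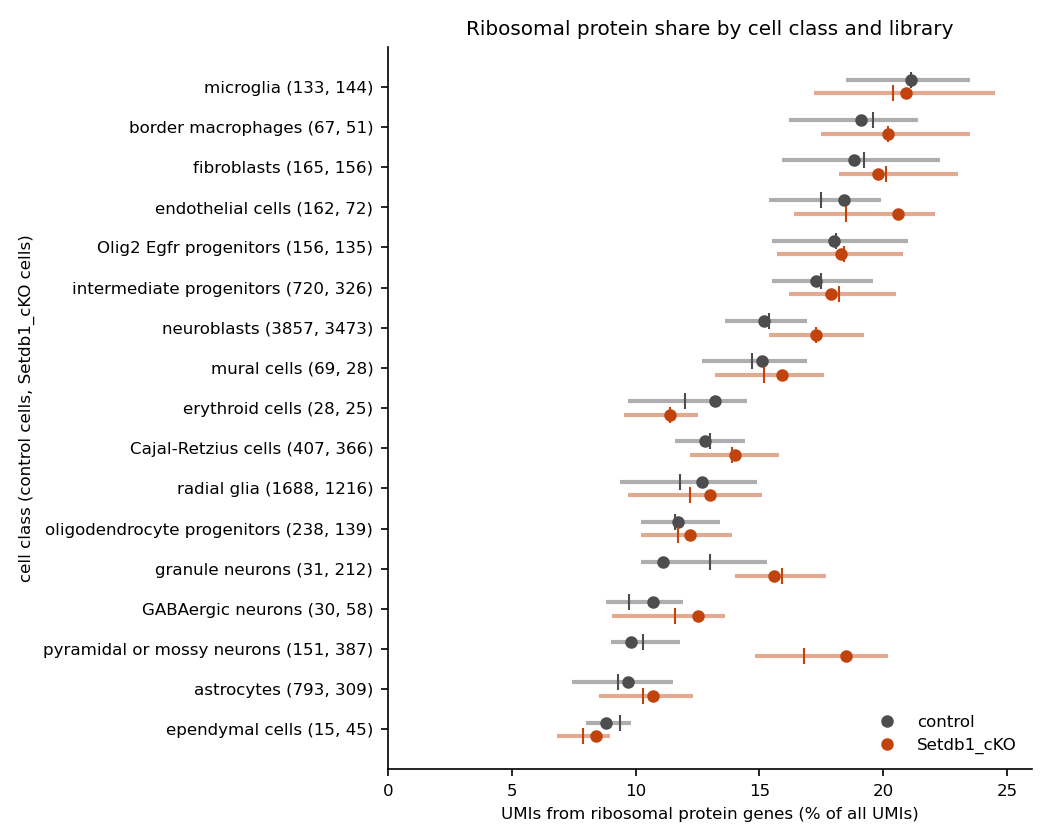
Share of UMIs from the 83 ribosomal protein genes (x axis, percent of all UMIs) in 17 cell classes (y axis, with control and Setdb1_cKO cell numbers). Dots are class sums, bars the middle 50% of cells and ticks the median cell; the pyramidal or mossy class stands apart, at 9.80% in control and 18.5% in Setdb1_cKO, while microglia are at 21.1% and 20.9%.

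Large-subunit and small-subunit members moved by nearly the same ratio in most classes. In control radial glia the large-subunit genes held 7.09% and the small-subunit genes 5.63% of UMIs, and in Setdb1_cKO 7.23% and 5.73%, a ratio of 1.02 for each. In neuroblasts the ratios were 1.13 and 1.14. The wider gaps were in granule neurons, at 1.38 and 1.43, and in pyramidal or mossy neurons, at 1.84 (1.83 to 1.85) and 1.95 (1.94 to 1.96).

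The summed share was higher in Setdb1_cKO in 14 of the 17 classes, by amounts that differed between classes. Radial glia had 12.7% in control and 13% in Setdb1_cKO (ratio 1.02), intermediate progenitors 17.3% and 17.9% (1.04), neuroblasts 15.2% and 17.3% (1.14) and astrocytes 9.68% and 10.7% (1.1). The granule neuron share was 11.1% and 15.6% (1.40, 1.38 to 1.42), with 31 control and 212 Setdb1_cKO cells. Endothelial cells, in which Setdb1 was not lower, had 18.4% and 20.6% (1.12), a larger ratio than that of radial glia. The share was lower in microglia (0.987, 0.981 to 0.993), ependymal cells (0.954) and erythroid cells (0.858), of which ependymal and erythroid cells numbered 15 and 28 in control. Over the 12 classes of at least 50 cells, the order of class shares in the libraries had a Spearman correlation of 0.83, and the classes of a library share its preparation and free RNA. Among all 17 classes the pyramidal or mossy class moved furthest in rank, from 15th in control to 5th in Setdb1_cKO, and erythroid cells moved from 9th to 15th.

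The radial glia difference was small, and it lay below 1 in a single depth band and with another way of drawing the class. Cells of 1000 to 4000 UMIs had 11.4% in control against 12.6% (1.11), those of 4000 to 8000 UMIs 12.1% and 12.4% (1.03), those of 8000 to 16000 UMIs 13.6% and 13.2% (0.966), and those above 16000 UMIs 15.3% and 15.4% (1.01). Clusters named from the same markers gave 0.987. The libraries filled different clusters within the class: 50.2% of control radial glia were in 1 cluster and 59.2% of Setdb1_cKO radial glia in another. Neuroblasts and intermediate progenitors also differed in their main cluster. Mitochondrial genes held 3.84% of radial glia UMIs in control and 4.81% in Setdb1_cKO, and their part in the result was not tested.

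Cycling and non-cycling cells of a class had similar ratios between the libraries. Cells were called cycling at 10 or more UMIs per 10000 from 8 mitotic genes such as Top2a and Mki67. Cycling radial glia had 13.1% in control and 13.6% in Setdb1_cKO, and non-cycling radial glia 12.6% and 12.8%. Cycling intermediate progenitors had less than non-cycling ones in both libraries, 15.8% against 18.7% in control and 16.0% against 19.1% in Setdb1_cKO. The ratios were 1.01 for cycling and 1.03 for non-cycling intermediate progenitors, against 1.04 for the class. Cycling cells made up 38.9% of this class in control and 31.3% in Setdb1_cKO, and their part in the class ratio was not tested. The cycling share of radial glia was 24.1% in control and 13.2% in Setdb1_cKO, and 273 control and 129 Setdb1_cKO cells of both classes lay between 5 and 20 UMIs per 10000, near the limit.

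Member by member, those past the threshold used here were nearly all higher in Setdb1_cKO. A gene was counted as higher where its CPM in Setdb1_cKO was at least 25% above that in control, and as lower where control was at least 25% above Setdb1_cKO. Over all kept cells, 19 of 81 measured members were higher and 1 was lower, where 18.6% and 19.7% of all 17481 measured genes were. Radial glia had 6 of 80 higher and 0 lower (background 13.6% and 18.8%), astrocytes 7 and 0 (16.4% and 15.6%), intermediate progenitors 4 and 1 (13.8% and 21.5%), and neuroblasts 14 and 1 (14.2% and 16.8%). Granule neurons had 53 higher members of 80 and 1 lower, with a background of 24.8% and 31.1%. Scaled to UMIs of genes that are not members, 70 of the granule neuron members were higher, whereas 29 were with a stricter cell filter and 30 in cells of 4000 to 10000 UMIs. Since counting noise carries rare genes past the threshold, the same count was made over genes of at least 100 CPM, which 79 members reached. By that count 18 members were higher over all cells (background 8.69%). Pyramidal or mossy neurons had 72 (background 9.22%), granule neurons 53 (15.6%), neuroblasts 14 (5.94%) and endothelial cells 14 (3.54%), shares of the members well above these backgrounds. Astrocytes had 7 (5.66%), radial glia 6 (6.24%), fibroblasts 6 (6.34%) and intermediate progenitors 4 (6.06%), near the background, and microglia 3 (10.1%), below it.

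In radial glia, astrocytes and intermediate progenitors the members that were higher all encode short proteins, and in neuroblasts and neurons longer ones joined them. The 14 members with a coding sequence of up to 330 nt (at most 110 residues, a limit chosen after the values were seen) were, from the shortest, Rpl41, Rpl39, Rpl39l, Rps29, Rps28, Rpl38, Rps21, Rps27, Rps27l, Rpl37a, Rpl37, Rpl36, Rpl36a and Rpl35a. Without Rpl39l, which was rarely detected, all 13 were above 1 in radial glia, astrocytes, intermediate progenitors and neuroblasts. Short members made up all 6 higher members of radial glia, all 7 of astrocytes and all 4 of intermediate progenitors. They were 11 of 14 in neuroblasts, 13 of 19 over all cells, 12 of 53 in granule neurons and 12 of 72 in pyramidal or mossy neurons. Their summed UMIs had a ratio of 1.22 in radial glia, against 0.986 for the 67 longer members. Granule neurons had 1.69 for short and 1.35 for longer members, neuroblasts 1.36 and 1.1, astrocytes 1.27 and 1.07, and intermediate progenitors 1.23 and 1.0. Across members, the Spearman correlation of ratio with coding length was -0.67 in radial glia, -0.75 in intermediate progenitors and -0.44 in granule neurons, and these points share libraries, depth and sequence composition.

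The same division by length was present in classes where Setdb1 was not lower. Short and longer members had summed ratios of 1.32 and 1.08 in endothelial cells, 1.22 and 1.03 in fibroblasts, 1.28 and 1.01 in border macrophages and 1.19 and 1.02 in oligodendrocyte progenitors. In microglia they were 1.18 (1.16 to 1.20) and 0.953 (0.947 to 0.959), so the summed microglial share near 1 was made of members on both sides of it. In erythroid cells, with 28 and 25 cells, the length relation was weak (Spearman correlation -0.12). Other genes of at least 100 CPM were compared by median log2 ratio. Those with a coding length of up to 240 nt had 0.13 in radial glia and 0.14 in neuroblasts. The 5 members of that length had 0.38 and 0.47. In pyramidal or mossy neurons these other genes had -0.02 and those members 1.17. Up to 330 nt, other genes had 0.01 in radial glia and 0.04 in neuroblasts, and the short members 0.32 and 0.45. In pyramidal or mossy neurons the medians up to 330 nt were -0.04 for other genes and 1.3 for short members. Above 330 nt, other genes had -0.07 in radial glia, -0.04 in neuroblasts and -0.19 in pyramidal or mossy neurons. The longer members had -0.02, 0.11 and 0.73. In these classes the medians of other genes were thus also lower above 330 nt, by less than those of the members. Whether fragment size or library preparation takes part in the length relation was not tested.

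**Figure D2:**
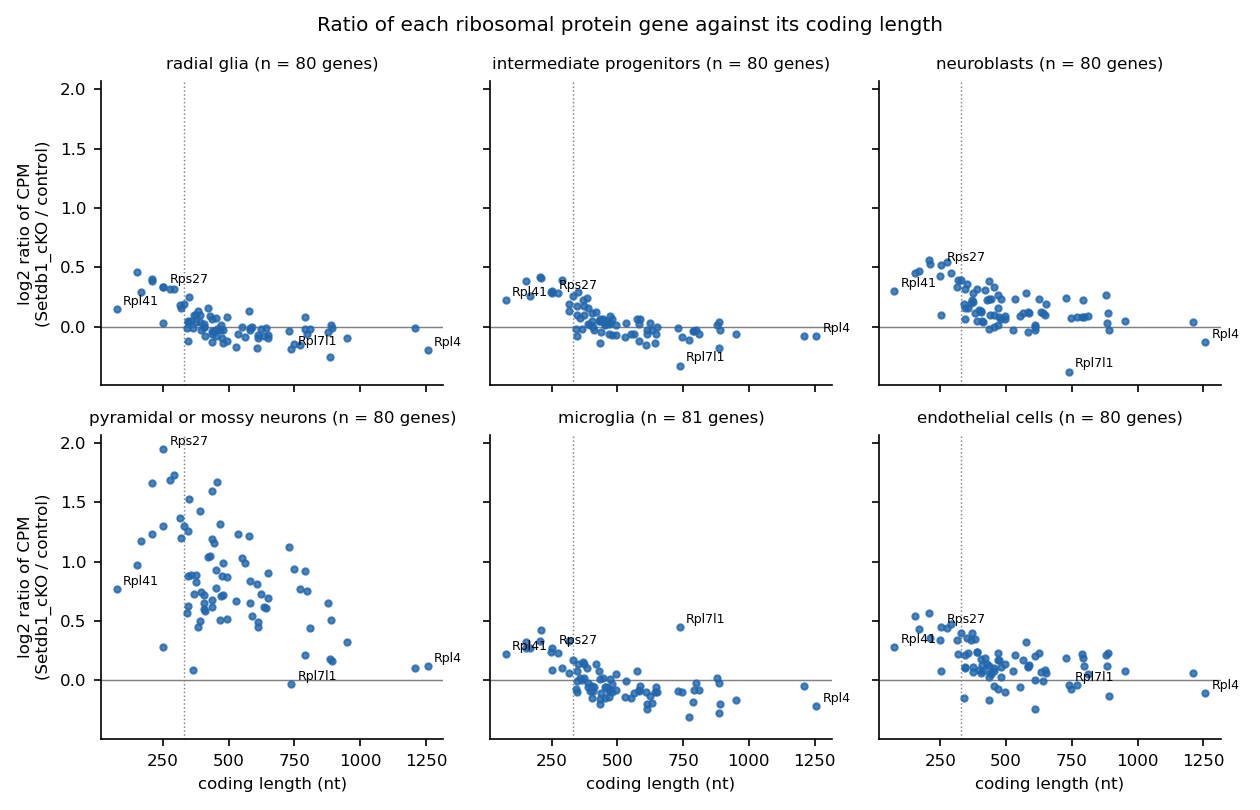
Log2 ratio of CPM in Setdb1_cKO over control (y axis) against coding length in nt (x axis) for each measured ribosomal protein gene in 6 cell classes; the dotted line is at 330 nt. Points left of the line lie above 0 in the 6 classes, those on the right lie around 0 in radial glia and microglia, and 79 of 80 members lie above 0 in pyramidal or mossy neurons.

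In all 12 classes of at least 50 cells 80 members were measured, and 18 of these were above 1 in each of the 12, where 2.19% of the 2234 genes measured in all 12 were. Of these 18, 12 were short. The remaining short member, Rps27l, was above 1 in 9. No member was at or below 1 in all 12. A total of 7 members passed the 25% threshold upward in 6 or more of the 12 classes (background 1.66%): Rps28 in 12, Rpl38 and Rpl39 in 11, Rps27 in 9, Rpl37 and Rps21 in 8 and Rpl37a in 6. Rpl41, the shortest of all with 25 residues, passed it in 1 class although above 1 in all 12.

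Rps28 is a small-subunit protein at the ribosome's head, near the mRNA exit. Radial glia had 1297 CPM of it in control against 1687 in Setdb1_cKO (ratio 1.3, 1.27 to 1.33), and the pairs were 1731 and 2558 CPM in neuroblasts (1.48, 1.46 to 1.5) and 2632 and 3319 CPM in microglia (1.26, 1.20 to 1.33). The 12 ratios of Rps28 lay between 1.26 and 3.17. In the 4 classes without lower Setdb1 they were 1.26 to 1.48, a range that overlaps the lineage classes.

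Rpl38, a large-subunit protein known from the mouse Tail short mutant for its part in Hox mRNA translation, was at 1262 and 1666 CPM in radial glia (1.32, 1.29 to 1.35), 1738 and 2304 CPM in intermediate progenitors (1.33, 1.28 to 1.37) and 2013 and 2901 CPM in neuroblasts (1.44, 1.42 to 1.46). Its ratios in the classes without lower Setdb1 were 1.20 to 1.3. Rpl39, which lines the peptide exit tunnel and is encoded on the X chromosome, was at 1439 and 1978 CPM in radial glia (1.37, 1.35 to 1.40), the largest member ratio in that class, and at 1182 and 1626 CPM in astrocytes (1.38, 1.32 to 1.43). In the same 4 classes Rpl39 had ratios of 1.27 to 1.45.

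Rps27, a small-subunit protein with a zinc finger, was at 921 and 1161 CPM in radial glia (1.26, 1.23 to 1.29), 773 and 1076 CPM in astrocytes (1.39, 1.33 to 1.46) and 1278 and 1832 CPM in neuroblasts (1.43, 1.41 to 1.46). Rps21, another short small-subunit protein, had 1528 and 1921 CPM in radial glia (1.26) and 1332 and 1792 CPM in astrocytes (1.35). Rpl37 and Rpl37a, zinc-binding proteins of the large subunit, were among the 5 highest ratios in 2 of the 5 lineage classes each. Rpl37 was at 1150 and 1596 CPM in astrocytes (1.39) and 2046 and 2673 CPM in intermediate progenitors (1.31), and Rpl37a at 2014 and 2919 CPM in neuroblasts (1.45). Rps29, a zinc-binding protein whose gene is mutated in Diamond-Blackfan anaemia, completed the 5 highest in neuroblasts, at 2209 and 3065 CPM (1.39). In intermediate progenitors the fifth was Rps27l, a paralog of Rps27 and a p53 target, at 365 and 449 CPM (1.23).

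At the low end were members that encode long proteins and a paralog. Rpsa, a small-subunit protein also known as the laminin receptor, had 2420 CPM in control against 2027 CPM in Setdb1_cKO in radial glia (0.838, 0.822 to 0.853), 1599 and 1394 CPM in astrocytes (0.872) and 3471 and 3073 CPM in intermediate progenitors (0.885). In neuroblasts Rpsa was at 2448 and 2506 CPM (1.02) and in microglia at 3058 and 2523 CPM (0.825). Rpl4, the longest member with 419 residues, whose loop reaches into the exit tunnel, was at 554 and 481 CPM in radial glia (0.869) and 749 and 685 CPM in neuroblasts (0.914). Rpl13a, known for silencing inflammatory transcripts when released from the ribosome, was at 1653 and 1462 CPM in radial glia (0.885) and 2387 and 2140 CPM in intermediate progenitors (0.896).

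Rps15 in 2 of the lineage classes, and Rpl30, Rps9 and Rpl15 in 1 each, belonged to the same end of the range. Rps15 was at 2136 and 1940 CPM in intermediate progenitors (0.908) and at 1390 and 1307 CPM in astrocytes (0.941), where clusters gave 1.0. Rpl30 in astrocytes was at 1141 and 1088 CPM (0.953), with 1.01 by clusters. In neuroblasts Rps9 had 2954 and 2855 CPM (0.966) and Rpl15 had 2477 and 2430 CPM (0.981), the latter at 1.01 after scaling to UMIs outside the members. Rpl10, on the X chromosome and among the last proteins to join the large subunit, was at 1352 and 1226 CPM in intermediate progenitors (0.907).

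**Figure D3:**
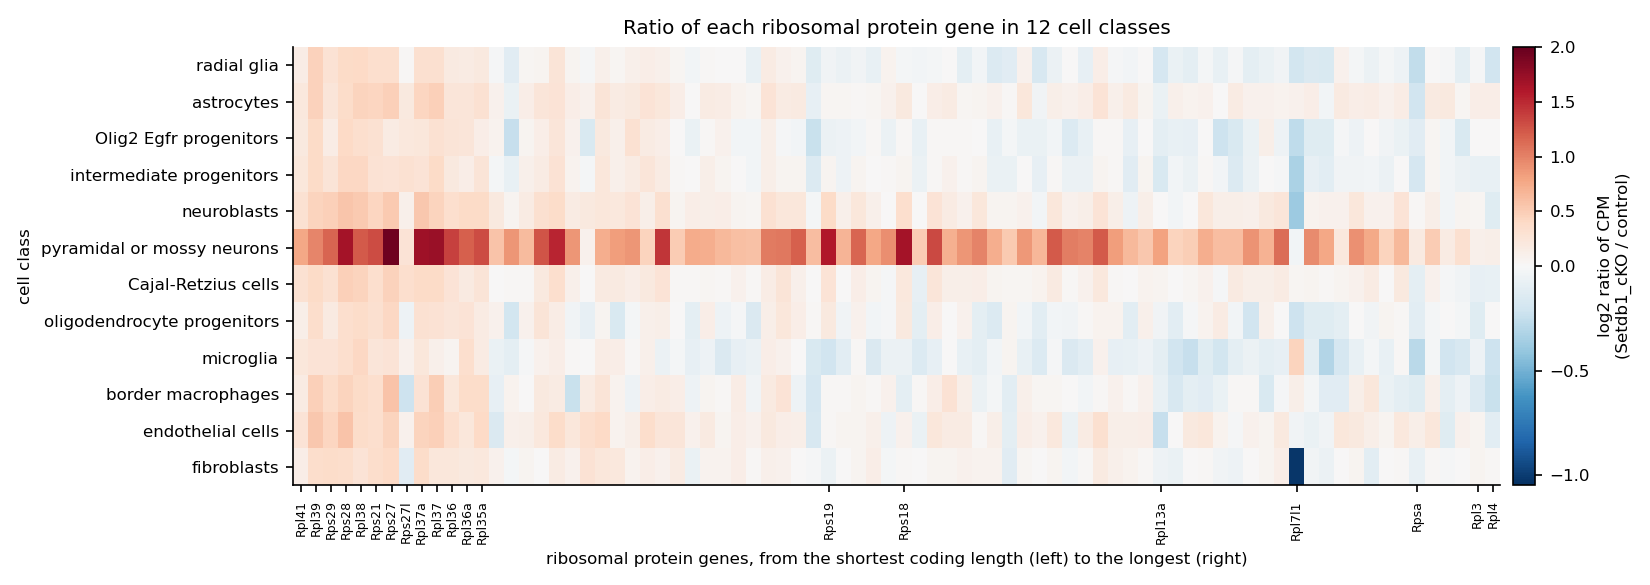
Log2 ratio of CPM in Setdb1_cKO over control (colour, red higher and blue lower in Setdb1_cKO) for 80 ribosomal protein genes (some of them labelled) ordered from the shortest to the longest coding length (x axis) in 12 cell classes (y axis). The left columns are red in all rows apart from Rps27l, the row of pyramidal or mossy neurons is red nearly throughout, and Rpl7l1 stands out in blue in fibroblasts (0.492) and in red in microglia (1.37).

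Rpl13, Rps27a, Rps24 and Rpl41 were among the 5 members with most UMIs over both libraries, and of these 4 Rpl41 is short and had the highest radial glia ratio. UMIs of a 3′ library count molecules and are not scaled by length. Rpl13, of the large subunit, was at 3600 and 3398 CPM in radial glia (0.944, 0.930 to 0.958). Rps27a, made as a fusion with ubiquitin, was at 2641 and 2607 CPM (0.987), and Rps24, known for its alternatively spliced last exons, at 2888 and 2962 CPM (1.03). Rpl41, a peptide that bridges the subunits, was at 2929 and 3259 CPM (1.11). In neuroblasts all 4 were above 1, Rpl13 at 1.09, Rps27a at 1.21, Rps24 at 1.03 and Rpl41 at 1.23.

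Of the 4 X-linked members, Rpl39 and Rpl36a are short and Rpl10 and Rps4x long, and they divided accordingly. Rpl36a was at 669 and 747 CPM in radial glia (1.12) and 819 and 1072 CPM in neuroblasts (1.31), and Rpl39 at 1556 and 2124 CPM in neuroblasts (1.36). Rpl10 was at 913 and 910 CPM in radial glia (0.996) and 1389 and 1498 CPM in neuroblasts (1.08), and Rps4x, which escapes X inactivation in humans but not in mice, at 1912 and 2028 CPM (1.06) and 2366 and 2503 CPM (1.06). With autosomal members alone, the radial glia share ratio was 1.01.

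Granule neurons had the second-largest share ratio, and their control value rests on 31 cells with 29414 member UMIs. Rps27 had 899 CPM in control against 1812 CPM in Setdb1_cKO (2.02, 1.77 to 2.31), Rps28 at 1311 and 2521 CPM (1.92), Rpl37a at 1530 and 2807 CPM (1.84), Rps26, a protein of the mRNA exit channel, at 1239 and 2246 CPM (1.81), and Rps19, the gene most often mutated in Diamond-Blackfan anaemia, at 1458 and 2630 CPM (1.80). At the low end were Rpl7l1, at 83.1 and 62.3 CPM (0.750, 0.475 to 1.24), Rpl4 at 563 and 577 CPM (1.03), Rpl5, which with Rpl11 binds Mdm2, at 1057 and 1125 CPM (1.06), Rps6, the substrate of the S6 kinases, at 808 and 902 CPM (1.12) and Rplp2 of the ribosomal stalk at 1243 and 1411 CPM (1.14). The median cell had 13% in control and 15.9% in Setdb1_cKO, a ratio of 1.23, and cells of 4000 to 10000 UMIs had a summed ratio of 1.24. In 18 of the 31 control cells and 69 of the 212 Setdb1_cKO cells the class score was less than 1.3 times that of the next class.

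Pyramidal or mossy neurons showed the largest difference, with nearly the whole gene set higher. Members held 9.80% of UMIs in 151 control cells and 18.5% in 387 Setdb1_cKO cells, a ratio of 1.89 (1.88 to 1.89), and 72 of 80 measured members passed the threshold upward and 0 downward, where 13.1% and 29.4% of 11197 measured genes did. The median cell had 10.3% and 16.8%. The middle 50% of cells, 9.02% to 11.8% in control and 14.8% to 20.2% in Setdb1_cKO, did not overlap. Setdb1 was at 41.2 and 13.6 CPM in these cells. Scaling to UMIs outside the members adds 0.15 to every log2 ratio in this class.

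Short members led again but were joined by longer ones. Rps27 had 620 CPM in control against 2386 CPM in Setdb1_cKO (3.85, 3.67 to 4.05), Rpl37 at 1362 and 4521 CPM (3.32), Rpl37a at 1188 and 3840 CPM (3.23) and Rps28 at 1086 and 3439 CPM (3.17). Rps18, a protein of the small subunit's head with 152 residues, was at 1190 and 3799 CPM (3.19, 3.08 to 3.31), and Rps19, with 145 residues, at 1334 and 4056 CPM (3.04, 2.94 to 3.14). In radial glia Rps18 had a ratio of 0.985 and Rps19 of 0.974, and in microglia 0.958 and 0.869. In neuroblasts Rps18 was at 1.26 and Rps19 at 1.3, and in granule neurons they were at 1.43 and 1.80. The lowest ratios were those of Rpl7l1 (47.5 and 46.8 CPM, 0.985), Rpl22l1 (390 and 417 CPM, 1.07), Rpl3 of the peptidyl transferase centre (1035 and 1107 CPM, 1.07), Rpl4 (444 and 484 CPM, 1.09) and Rpl5 (790 and 885 CPM, 1.12). Short members together had a ratio of 2.48 and longer ones of 1.78.

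Identity markers and RNA quality were measured in the same cells, and their part in the result was not tested. One cluster held 92.7% of the control and 89.1% of the Setdb1_cKO cells of the class. Their 10 class markers, such as Neurod6, Crym and Grp, summed to 1921 and 1624 CPM, mitochondrial genes held 4.65% and 4.23% of UMIs, Malat1 0.856% and 0.666%, and the 11 radial glia markers 471 and 209 CPM. Median UMIs per cell were 17442 and 20141. In cells of 8000 to 16000 UMIs the share was 11.1% in control and 17.3% in Setdb1_cKO (1.55), and in deeper cells 9.23% and 18.6% (2.01). The class holds several neuron types, and whether their mixture differed between the dissections was not tested.

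Clustering without the members set apart 143 cells that were rich in ribosomal protein UMIs, all from Setdb1_cKO and 0 from control, which allows up to 3 in that library. Members held 50.3% of their UMIs, against 16.2% in all other kept Setdb1_cKO cells, and single cells ranged from 20.4% to 72.8% with a median of 57.5%. The cells had medians of 5208 UMIs and 1185 genes, against 6992 and 2769 in other cells of the library, and 2032 UMIs outside the members against 5846. Mitochondrial genes held 7.42% of UMIs outside the members, against 5.37%. They made up 1.52% of kept Setdb1_cKO cells and 3.75% of that library's member UMIs. Cells above 40% numbered 3 in control and 137 in Setdb1_cKO, of which 127 were in the cluster.

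The cluster stayed unnamed, and with 1 library per group it may be a property of that library and not a cell type. Only 13 of its cells passed a marker gate, all into the pyramidal or mossy class. All 10 pyramidal or mossy markers were detected and summed to 954 CPM of UMIs outside the members, against 374 CPM in other Setdb1_cKO cells and 1997 CPM in the pyramidal or mossy class. The 11 radial glia markers summed to 307 CPM against 6474 CPM in other Setdb1_cKO cells, and 6 of 10 microglia markers were at 0. Neuroblast markers had the largest class sum, 2897 CPM, against 6300 CPM in other cells and 3963 CPM in the pyramidal or mossy class. Astrocyte markers had 886 CPM, against 3001 and 430 CPM, and GABAergic markers 51.1 CPM, against 61.8 and 15.4 CPM. Setdb1 had 12 UMIs in the cluster.

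Per UMI outside the members, 73 of 81 members were at least 2-fold above other Setdb1_cKO cells and 2 were below them, where 14.4% and 67.0% of 16338 measured genes were. The cluster was singled out for its member share, so these counts are a description. The highest were Rps19 (11.4-fold), Rps18 (9.63-fold), Rps27 (9.20-fold), Rpl37 (9.04-fold), and Rpl37a and Rps28 (8.42-fold each). Of the 10 highest, 7 were also among the 10 highest ratios of the pyramidal or mossy class, a comparison that shares the 13 cells gated there. On the same scale the members below other cells were Rpl7l1 (0.342-fold) and Rpl39l, which had 0 UMIs, and the next lowest were Rps27l (1.17-fold), Rpl4 (1.26-fold) and Rps4x (1.40-fold). Fau and Rpl36al, ribosomal protein genes whose names the rule does not take, were 7.75-fold and 7.18-fold above other cells per UMI outside the members, and Snhg8, a snoRNA host, 10.7-fold. Gas5, another snoRNA host, was at 4.51-fold. Of the translation elongation factors, Eef1a1 was at 1.3-fold and Eef1b2 at 5.20-fold. The nuclear RNA Malat1 was at 0.478-fold and Meg3 at 4.05-fold.

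Without these 143 cells the pyramidal or mossy ratio was 1.84 (1.83 to 1.84), with 71 of 80 members past the threshold upward and 0 downward (background 13% and 28.4%). Rps27 then had a ratio of 3.70, Rps18 of 3.06 and Rps19 of 2.93. Of the 374 Setdb1_cKO cells left, 368 (98.4%) lay above the control median and 258 (69.0%) above 15.2%, the 95th percentile of control cells.

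**Figure D4:**
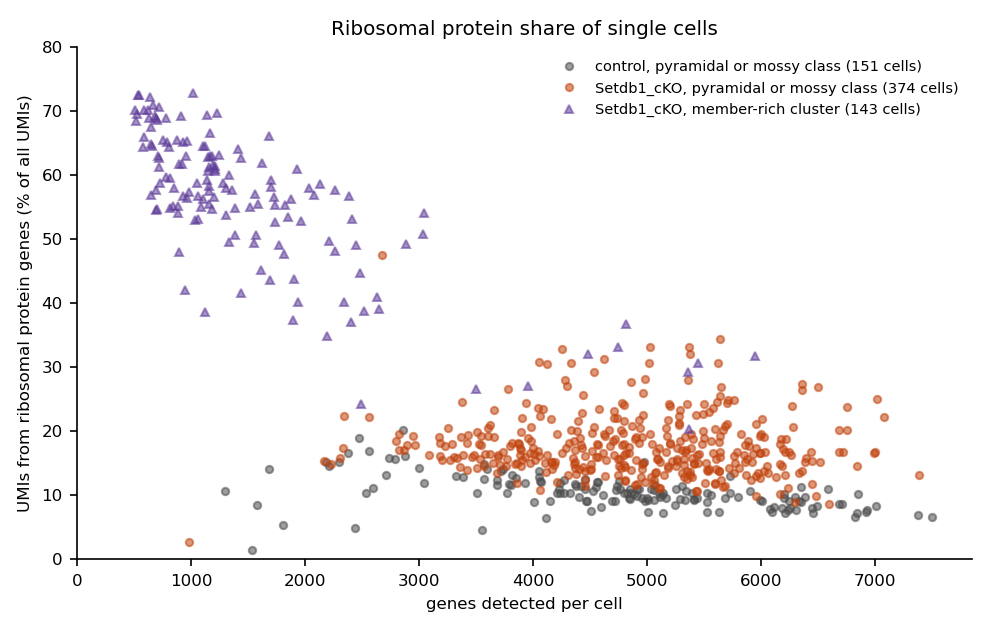
Share of UMIs from ribosomal protein genes (y axis, percent) against genes detected (x axis) for single cells of the pyramidal or mossy class in control (151 cells) and in Setdb1_cKO outside the member-rich cluster (374 cells), and for the 143 cells of that cluster. The cluster lies to the upper left, with a median of 57.5% and 1185 genes. Most Setdb1_cKO cells of the class (368 of 374) lie above the control median, while single cells of the libraries overlap.

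Within a library, members also differed in which class used them most. Among 80 members with at least 100 UMIs, the level in the highest of the 12 large classes was 1.69 to 5.24 times that in the lowest in control, with a median of 2.38. Microglia were the highest class for 32 members, fibroblasts for 14 and border macrophages for 10, and the lowest class was astrocytes for 40 and pyramidal or mossy neurons for 36. The highest class was the same in both libraries for 45 of 80 members. In Setdb1_cKO, pyramidal or mossy neurons were the highest class of 15 members, and in control of none.

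Rps29 varied most, from 1808 CPM in pyramidal or mossy neurons to 9475 CPM in border macrophages in control (5.24-fold), and it reached 12152 CPM in border macrophages of Setdb1_cKO. Rpl38 was highest in endothelial cells in both libraries, at 4196 CPM in control against 1020 CPM in astrocytes (4.11-fold), and at 5385 CPM in Setdb1_cKO. Rpl13 was highest in oligodendrocyte progenitors, with 8193 CPM in control (9127 in Setdb1_cKO), against 2530 CPM in control pyramidal or mossy neurons (3.24-fold). These members therefore peaked in a different class from the summed share, which was highest in microglia.

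Other members among the 10 most variable peaked in immune cells or fibroblasts. Rpl10 (3.63-fold) and Rpl35a (3.23-fold) were highest in border macrophages, and Rps12 (3.53-fold) and Rpl12 (3.46-fold) in microglia. Rps27 was highest in fibroblasts, at 2182 CPM in control, and lowest in pyramidal or mossy neurons, at 620 CPM (3.52-fold). The 8 members described here had the same highest class in Setdb1_cKO. As a share of member UMIs, only 3 of the 10 were again among the 10 most variable.

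**Figure D5:**
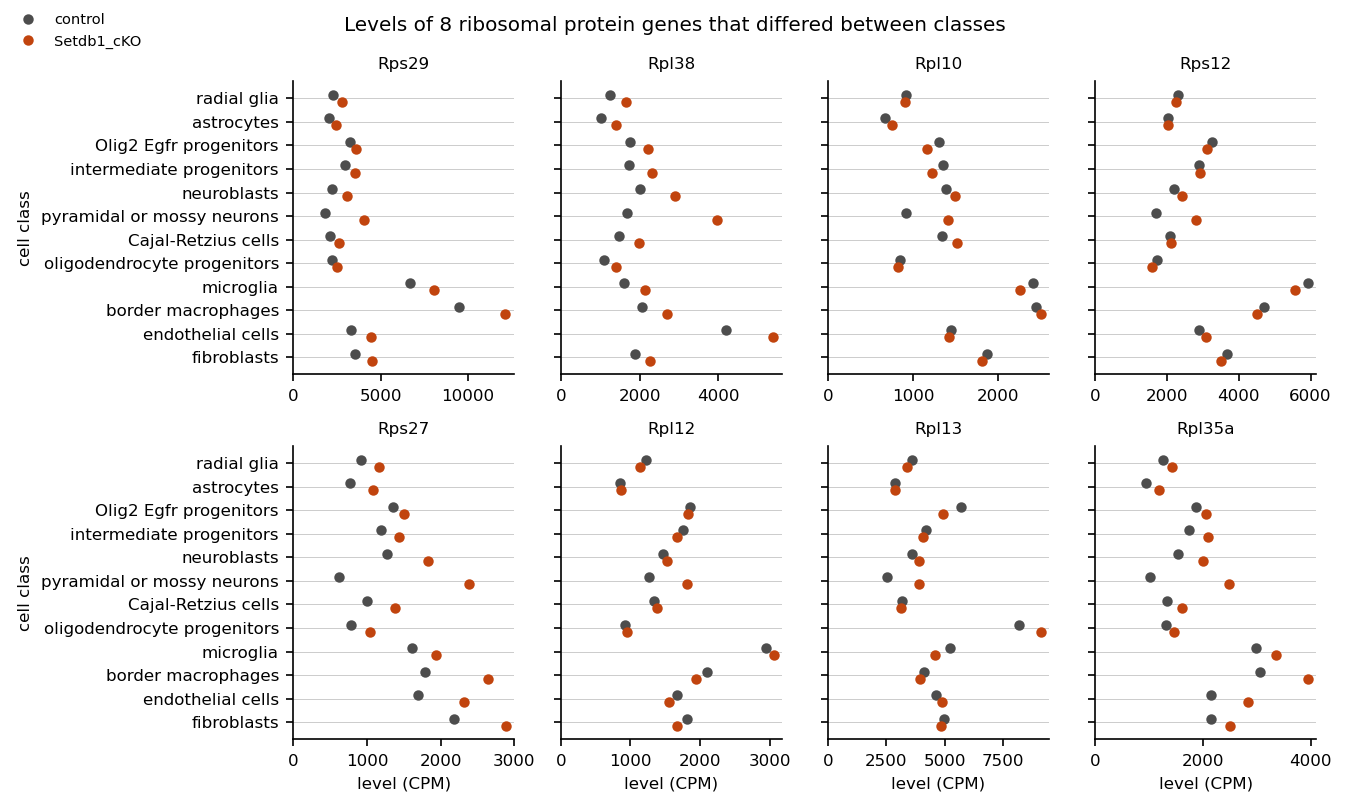
Levels (x axes, CPM, each panel with its own scale from 0) of 8 ribosomal protein genes from the 10 with the largest ratio of highest to lowest class in control, in 12 cell classes (y axis), for control and Setdb1_cKO. Rps29 is highest in border macrophages (9475 and 12152 CPM), Rpl38 in endothelial cells (4196 and 5385 CPM) and Rpl13 in oligodendrocyte progenitors (8193 and 9127 CPM).

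Paralog pairs were used at shares that differed between classes. Rpl22l1, which cross-regulates with Rpl22, gave 39.1% of the UMIs of the pair in control and 38.2% in Setdb1_cKO over all cells. It gave 57.6% in control Cajal-Retzius cells (56.0 to 59.3) and 22.0% in border macrophages (18.4 to 26), and in Setdb1_cKO 54.6% and 22.5%. The use of Rpl22l1 against Rpl22 in these classes therefore differed by more than it did between the libraries.

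Rps27l gave 18.5% of the UMIs of its pair with Rps27 in control and 12.7% in Setdb1_cKO. In pyramidal or mossy neurons the share went from 17.2% (15.6 to 18.8) to 6.13% (5.80 to 6.47), with Rps27l at 129 and 156 CPM while Rps27 was at 620 and 2386 CPM. In neuroblasts Rps27l was at 196 and 210 CPM, above 1 in ratio, but at 0.942 as a share of member UMIs. In pyramidal or mossy neurons the paralog thus had a ratio of 1.21 (1.08 to 1.37), where its parent had the largest ratio of all members.

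Rpl7l1, a paralog of Rpl7 linked to subunit assembly, was the member with the lowest ratio over all cells, at 85.9 and 67.2 CPM (0.781, 0.753 to 0.811). It was at 86.6 and 66.4 CPM in neuroblasts (0.766) and 95.7 and 76.1 CPM in intermediate progenitors (0.795), but at 55.2 and 75.8 CPM in microglia (1.37), with 48 and 91 UMIs. Rpl39l, known from testis, was rare, with 43 and 65 UMIs, of which 16 and 28 were in microglia (18.4 and 23.3 CPM) and 0 in pyramidal or mossy neurons of either library. Rpl3l, a striated muscle paralog of Rpl3, and Rpl10l, a testis paralog of Rpl10, were at the limit of counting. Rps4l was not among the genes of the files used here.

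In pyramidal or mossy neurons, genes that work with the members mostly had summed ratios nearer 1. The exceptions were ribosomal protein genes under other names and snoRNA host genes. Of the listed genes that encode ribosomal proteins under other names, Fau was at 1988 and 2035 CPM in radial glia (1.02), 2050 and 2521 CPM in neuroblasts (1.23) and 1737 and 3935 CPM in pyramidal or mossy neurons (2.27). Rpl36al was lower in Setdb1_cKO in radial glia, at 484 and 445 CPM. It was at 419 and 509 CPM in neuroblasts (1.21) and 481 and 860 CPM in pyramidal or mossy neurons (1.79). Rack1, a signalling scaffold on the small subunit with a longer coding sequence, was at 938 and 828 CPM in radial glia (0.883) and 657 and 759 CPM in pyramidal or mossy neurons. The list summed to ratios of 0.980 in radial glia, 1.13 in neuroblasts, 1.37 in granule neurons and 1.92 in pyramidal or mossy neurons, close to the members in each class.

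Of 18 elongation and other factors whose mRNAs carry a 5′ TOP, 0 were higher and 0 lower over all cells by the 25% threshold, and their sum had a ratio of 1.0. In pyramidal or mossy neurons the sum was at 1.09, with Eef1a1 at 2676 and 3074 CPM, Tpt1 at 1923 and 2135 CPM (1.11) and Npm1 at 812 and 782 CPM (0.963). Snhg8, one of 13 snoRNA host genes found, was at 72.9 and 170 CPM in neuroblasts (2.33) and 46.4 and 238 CPM in pyramidal or mossy neurons (5.13, 4.30 to 6.17). Gas5, a 5′ TOP snoRNA host, was at 314 and 751 CPM there (2.40), and 9 of the 13 hosts passed the threshold upward in that class (background 13.1%), with a summed ratio of 2.15. Over all cells the hosts had 1.26, with 5 of 13 higher and 1 lower (background 18.6% and 19.7%).

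The factors that make ribosomes and start translation had summed ratios near 1 in pyramidal or mossy neurons, well under that of the members. There, 20 ribosome biogenesis genes summed to 0.882, with 0 higher and 7 lower (background 13.1% and 29.4%), and 15 genes of RNA polymerase I to 0.996. Of the other lists, 22 initiation factors had 0.974, 78 mitochondrial ribosomal proteins 0.964, 18 genes of the mTOR pathway 1.01, 13 p53 targets 0.872, 8 Myc family genes 0.938 and 12 ribosome quality and assembly genes 0.911. Scaled to UMIs outside the members, these 8 lists lay between 0.965 and 1.12. In granule neurons biogenesis genes had 0.927 and initiation factors 0.992, and the Myc family genes 1.46. Over all cells these sums lay between 0.939 and 1.02. In radial glia 8 of 20 biogenesis genes were lower by the threshold and 0 higher (background 18.8% and 13.6%), with a summed ratio of 0.878 (0.860 to 0.896), among them Fbl, the rRNA methyltransferase fibrillarin, at 105 and 82.0 CPM (0.781), and Nop56 at 96.0 and 68.6 CPM (0.714), while the members' sum was 1.02. Dividing cells were fewer in Setdb1_cKO radial glia, as given above, and their part in the biogenesis difference was not tested.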

How the data were processed

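The deposited matrices hold whole-number UMI counts per gene and barcode, which the authors made with Cell Ranger 7.1.0 and build mm10 (Seurat is also named), per the submitters' processing notes. The sources used here do not give the annotation, the use of intronic reads or the handling of multi-mapped reads. No barcode had fewer than 500 UMIs.

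Cells needed 1000 UMIs, 500 genes and no more than 10% mitochondrial UMIs. Scrublet (scanpy 1.11.5, expected rate 8%) marked 722 of 14294 control barcodes (5.05%) and 682 of 11997 Setdb1_cKO barcodes (5.68%) as doublets, which were removed. Each cell took the class of its highest mean marker score if that was at least 0.4, at least 1.15 times the next and based on 3 detected markers. The 161 markers held no member, and these limits were set after the data were seen. For comparison, cells were clustered without ribosomal protein and mitochondrial genes (2000 variable genes, 30 components, Leiden resolution 1.0, leidenalg 0.10.2), which gave 28 clusters, 25 of them named from the markers.

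UMIs were summed per class and library and scaled to CPM. Ratios are Setdb1_cKO over control with exact conditional Poisson intervals, shares of a pair have exact Clopper-Pearson intervals, all at 95%. PCR and cell-to-cell variation are not covered. Log2 ratios used a pseudocount of 0.5 UMI. The calculation was tested on simulated counts with 200 changed genes. Gene positions and coding lengths came from GENCODE vM21 by Ensembl identifier, which matched all 83 members. The genes named were the 5 highest and 5 lowest member ratios per lineage class and in pyramidal or mossy neurons (the latter added after the values were seen), the 10 most class-variable members, paralogs, the 5 members with most UMIs, X-linked members and up to 4 genes per list. Some genes these rules select are not reported here. Other members and genes named beyond these were chosen after their values were seen. The members and the 11 gene lists were chosen with earlier results of these data known. Alternatives were other cell filters, doublets kept, clusters in place of gates, other denominators, other thresholds, a depth band and medians over cells.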

Additional observations from a re-analysis of the deposited data

Results flagged for a closer look

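The ribosomal protein share differed between the libraries in opposite directions in different classes. In pyramidal or mossy neurons the ratio of Setdb1_cKO to control was 1.89, and in microglia it was 0.987. With 1 library per group, this difference between classes was not tested.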

How the results depend on the processing

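No paired analysis was possible because each genotype had 1 library, and no replicate could be left out. The cause of the shifts below was not tested. The radial glia share ratio of 1.02 was 0.987 with clusters in place of marker gates, the only share ratio that changed direction. It was 1.03 without mitochondrial genes in the denominator, without these and Malat1, Gm42418 and Gm26917, in cells of 4000 to 10000 UMIs and with the stricter gate (score 0.5, margin 1.3, chosen after seeing the data), 1.01 with autosomal members and 1.04 from cell medians. The other share ratios kept their direction. Astrocytes had 1.14 with clusters, 1.12 with the stricter cell filter and 1.08 in the depth band. Intermediate progenitors had 1.05 in the depth band and 1.07 with the stricter gate. Neuroblasts had 1.12 with clusters and from medians and 1.13 with the stricter gate. Granule neurons had 1.24 with the stricter cell filter and in the depth band, 1.34 with doublets kept, 1.47 with the stricter gate and 1.23 from medians. Pyramidal or mossy neurons had 1.72 with clusters, 1.90 with the looser filter and with autosomal members, 1.86 with the stricter filter and with doublets kept, 1.87 without mitochondrial and nuclear RNA, 1.56 in the depth band, 1.91 with the stricter gate, 1.84 without the member-rich cluster (chosen after seeing the data) and 1.63 from medians.

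At a threshold of 1.5-fold, 0 members were higher in radial glia, astrocytes, intermediate progenitors and neuroblasts, 18 were higher in granule neurons, and 0 were lower in intermediate progenitors, neuroblasts and granule neurons. At 1.1-fold, 14 were higher and 7 lower in radial glia, 40 and 1 in astrocytes, 18 and 5 in intermediate progenitors, and 39 were higher in neuroblasts. Radial glia had 3 higher with clusters and with the stricter filter, and intermediate progenitors 7 with the stricter gate. The 1 lower member of intermediate progenitors was 0 with doublets kept, without mitochondrial and nuclear RNA and when scaled to UMIs outside the members. That of neuroblasts was 0 with the stricter gate and 2 with a minimum of 5 UMIs. Granule neurons had 29 higher with the stricter filter, 30 in the depth band, and 0 lower with doublets kept and in the depth band. Among the single genes described, ratios crossed 1 for Rps15 (1.0) and Rpl30 (1.01) in astrocytes with clusters, Rpl15 (1.01) in neuroblasts scaled to UMIs outside the members, and Rps27l in neuroblasts as a share of member UMIs (0.942). Of the 10 most class-variable members, 3 remained as a share of member UMIs. Intermediate progenitors and granule neurons had no cluster alternative, since no cluster was named for them.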
